A study of Rattus norvegicus with 12 samples.

Results

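Growth arrest genes and D-type cyclins were followed in lungs of rats after trauma and hemorrhagic shock. The group holds Cdkn1a, Cdkn1b, Gadd45a, Btg1, Btg2, Ccnd1, Ccnd2, Ccnd3, Ccng1 and Pcna. Its members were chosen by gene symbol alone: every probe set of the array whose platform annotation names 1 of these 10 genes was taken. There were 23 such probe sets, for 9 of the 10 genes, among 8740 tested; no probe set carried the symbol Btg2, so Btg2 is not analysed here.

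The data are 12 Affymetrix RG-U34A arrays of whole lung from male Sprague-Dawley rats of 300 to 420 g, with 3 arrays in each of 4 groups. T/HS stands for trauma and hemorrhagic shock: after vessel cannulation and a laparotomy, blood was drawn until the mean arterial pressure was 30 mmHg, held there for 90 min and then returned, and the lungs were injured. T/SS stands for trauma and sham shock: the same operations with no bleeding, and no lung injury. In T/HS-LDL and T/SS-LDL rats the mesenteric lymph vessels were first tied and divided (LDL, lymph duct ligation), and neither group had measurable lung injury. All 4 groups share the cannulation and the laparotomy, and none is an unoperated control. Lungs were removed 3 h after the shock or sham period, 4.5 h after its start.

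Every group held 1 near-identical pair of arrays: the robust SD of their log2 differences was 0.00993 to 0.0548, while the remaining 8 within-group pairs had 0.164 to 0.232. Such arrays differed by less than any other pair and were counted as 1 sample, which leaves 2 samples per group. The labels call the arrays biological replicates. With 2 samples a group, the p-values rest on the spread between the samples of a group. That spread was pooled over the 4 groups and moderated by the spread of all probe sets. The averaged sample holds replicates 2 and 3 of T/SS and replicates 1 and 3 of the other groups. In the lists of values that follow, the averaged sample stands before the single array. The T/HS samples stood apart most: 248 and 256 probe sets differed over 2-fold between T/HS replicate 2 and the arrays of the averaged T/HS sample. Of 10 lung markers 9 were measured, among them surfactant proteins and the club cell protein Scgb1a1, and Sftpa1, Sftpb and Sftpc averaged 14.91, 14.92 and 14.93 on the log2 scale, at the upper end of the arrays' range. Among those markers the water channel Aqp1 differed by 0.94 ± 0.37 between T/HS-LDL and T/SS-LDL lungs and by -0.56 ± 0.37 between T/HS and T/SS lungs, and Aqp5, the water channel of type I cells, by -0.25 ± 0.38 and -0.80 ± 0.38 (limma adjusted p 0.584 to 0.998). Their part in the values of the members was not tested.

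Cells enter the division cycle when D-type cyclins (Ccnd1, Ccnd2, Ccnd3) bind the kinases Cdk4 and Cdk6, which then phosphorylate the retinoblastoma protein and free E2F factors. Cdkn1a (p21) and Cdkn1b (p27) bind and restrain cyclin-kinase complexes, and p21 also binds Pcna, the sliding clamp of DNA polymerase. Gadd45a and Ccng1 (cyclin G1) are stress and p53 targets, and Btg1 and Btg2 are antiproliferative proteins that also recruit the machinery that removes poly(A) tails. Most cells of an adult lung are at rest.

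The antiproliferative gene Btg1 read higher in each shocked sample than in each sham-shocked one on 1 of its 2 probe sets. For Ccnd1 1 pair of probe sets was lower in each shocked sample. However, 1 other Ccnd1 set was higher with shock in either duct state, and its remaining sets overlapped between shock and sham shock. No member passed an adjusted p of 0.05 in any comparison. Cdkn1a was not higher after shock: 1 of its 2 probe sets was lower in T/HS lungs. Pcna and Ccng1 stood apart in 1 of the 2 T/HS samples, and Gadd45a stood apart in 1 of the 2 T/HS-LDL samples.

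Btg1 is represented by probe sets L26268_at and L26268_g_at, which share 1 target sequence and are not independent measures. On L26268_at the log2 intensity was 13.68 and 13.81 in T/HS lungs, against 13.08 and 12.95 in T/SS lungs. With the duct tied it was 13.46 and 13.61 in T/HS-LDL lungs, against 13.26 and 12.83 in T/SS-LDL lungs. All 4 shocked samples lay above all 4 sham-shocked samples on L26268_at.

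The Btg1 log2 difference on L26268_at was 0.73 ± 0.16 for T/HS against T/SS (SE, 2 samples per group, 1.66-fold, limma adjusted p 0.373). With the duct tied, T/HS-LDL minus T/SS-LDL, it was 0.49 ± 0.16 (1.41-fold, limma adjusted p 0.998), a comparison that shares no sample with the first. Over both duct states the shock effect on Btg1 was 0.61 ± 0.11 (4 samples per side, 95% interval 0.34 to 0.88, limma adjusted p 0.298). The interaction, which is the shock effect with the duct open minus that with the duct tied, was 0.24 with a 95% interval of -0.29 to 0.77 (limma adjusted p 1). The L26268_at difference with the duct tied was 0.28 without T/SS-LDL replicate 2. The L26268_at interaction was 0.02 without the averaged T/SS-LDL sample and 0.45 without T/SS-LDL replicate 2. With all 12 arrays and near-identical pairs as a random block, the shock effect of Btg1 was 0.61 with a limma adjusted p of 0.0245. That fit counts near-identical arrays in part as separate samples, and it called 58 of all probe sets in this contrast.

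On L26268_g_at the Btg1 log2 intensity was 12.49 and 12.87 in T/HS lungs, against 12.34 and 12.06 in T/SS lungs, and these groups did not overlap. It was 12.47 and 12.61 in T/HS-LDL lungs, against 12.56 and 12.01 in T/SS-LDL lungs, which did overlap. The differences on L26268_g_at were 0.48 ± 0.22 with the duct open and 0.26 ± 0.22 with the duct tied (limma adjusted p 0.582 and 0.998), and 0.37 ± 0.15 over both (limma adjusted p 0.546). On L26268_g_at the difference with the duct tied was -0.01 without T/SS-LDL replicate 2 and 0.53 without the averaged T/SS-LDL sample, and that with the duct open was 0.29 without T/HS replicate 2. T/HS lungs differed from T/HS-LDL lungs by 0.21 ± 0.16 on L26268_at, without overlap (limma adjusted p 0.822).

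Btg1 is known to be well expressed in resting blood cells, and most markers of neutrophils and of monocytes and macrophages read higher with shock. Markers of other blood cells were mixed. Over both duct states 6 of 8 measured T cell markers were higher in shocked lungs and 2 lower, with a median of 0.07. Of 3 measured erythroid markers 2 were higher and 1 lower (median 0.03), and the 1 measured B cell marker differed by 0.06. The Hbb set, whose difference of 0.03 is the erythroid median, averaged 14.93, the same as Sftpc. It lay at the upper end of the arrays' range, where a rise can go unseen. Among neutrophil markers Lyz2 was the brightest, with a mean log2 intensity of 14.90, against 13.90 for Lcn2 and 13.87 for S100a9. Lyz2 thus adds most to their sum, and it differed by -0.04 over both duct states. The summed intensity of the 9 measured neutrophil markers (of 16 listed) was 68120 and 103100 in T/HS lungs, against 57750 and 53710 in T/SS lungs. It was 88070 and 104200 in T/HS-LDL lungs, against 74780 and 63330 in T/SS-LDL lungs. In T/HS against T/HS-LDL lungs 3 of the 9 neutrophil markers were higher and 6 lower (median -0.60). All 4 monocyte and macrophage markers were higher there (median 0.08), and Btg1 on L26268_at differed by 0.21. In T/SS-LDL against T/SS lungs 7 of the 9 neutrophil markers were higher and 2 lower (median 0.40). Of the monocyte and macrophage markers 3 were higher and 1 lower (median 0.09), and Btg1 differed by 0.03 on L26268_at. Over both duct states 8 of the 9 neutrophil markers and 4 of the 4 measured monocyte and macrophage markers were higher in shocked lungs, none past the adjusted threshold. For these 4 of 7 listed monocyte and macrophage markers the sum was 5454 and 9617 in T/HS lungs, against 3057 and 3603 in T/SS lungs. Cd14 made up most of this sum, with a mean log2 intensity of 12.03, against 8.34 for Csf1r, 7.91 for Ccr2 and 6.56 for Itgam. Over both duct states Cd14 differed by 1.17 and Ccr2 by 0.48, but Csf1r by only 0.07 and Itgam by 0.01. The monocyte and macrophage sum with the duct tied was 5686 and 8189 in T/HS-LDL lungs, against 3459 and 3548 in T/SS-LDL lungs. Both sums were thus higher in every shocked sample than in the sham-shocked samples of the same duct state. Their part in the Btg1 values was not tested, and in whole lung a larger number of cells and more RNA per cell cannot be told apart.

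**Figure D1:**
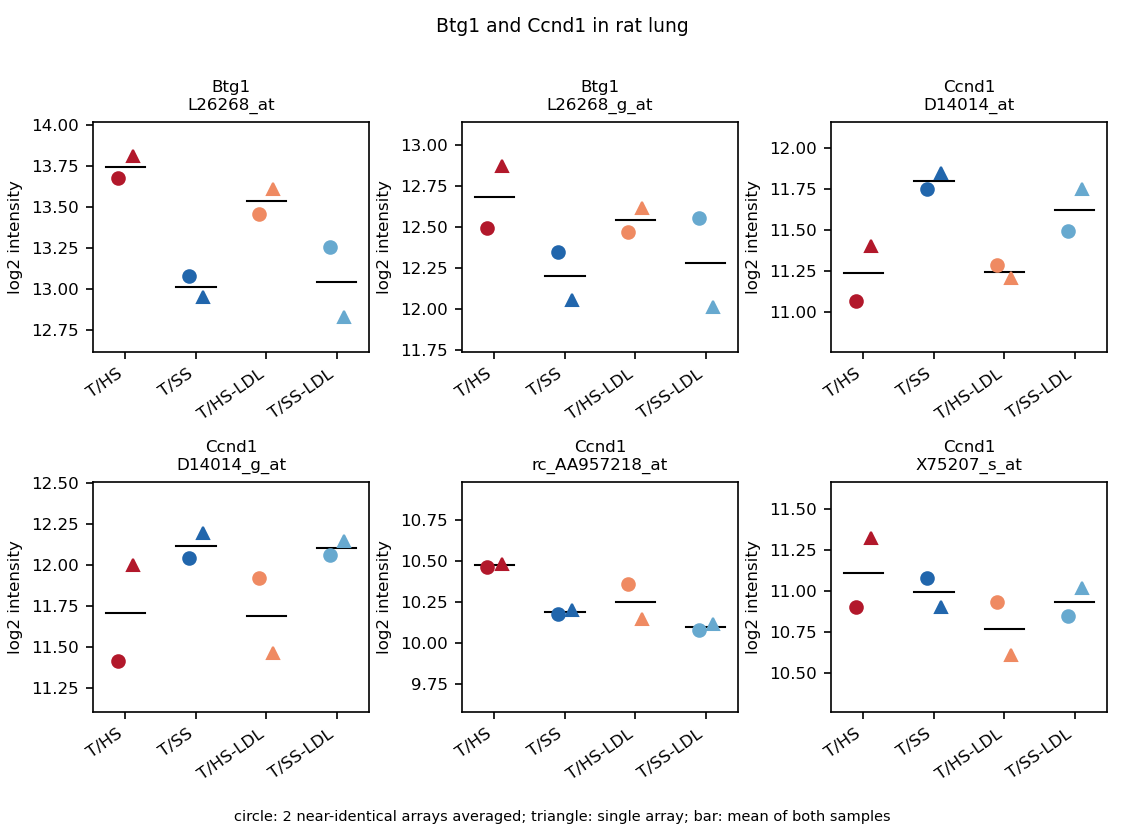
Log2 intensity of 2 Btg1 and 4 Ccnd1 probe sets in 4 groups of rat lung, with circles for the average of 2 near-identical arrays, triangles for the single array and bars for the mean of both samples. On L26268_at all shocked samples of Btg1 lie at 13.46 or above and all sham-shocked samples lie at 13.26 or below; D14014_at of Ccnd1 is lower in the shocked samples, and rc_AA957218_at of the same gene is not.

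The window around the RefSeq start of Btg1 is shown because Btg1 had the smallest p of the members. It runs from 250 bases before to 50 bases after the start, 5′ to 3′ on the plus strand of GRCr8 at chr7:33227899-33228198, and capitals mark the GC box GGGCGG, the motif of Sp1, on either strand. The bases from this start on begin with atg, the letters of a start codon. Whether it is also a start of transcription was not tested, so the marked boxes may lie within the transcript.

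Btg1: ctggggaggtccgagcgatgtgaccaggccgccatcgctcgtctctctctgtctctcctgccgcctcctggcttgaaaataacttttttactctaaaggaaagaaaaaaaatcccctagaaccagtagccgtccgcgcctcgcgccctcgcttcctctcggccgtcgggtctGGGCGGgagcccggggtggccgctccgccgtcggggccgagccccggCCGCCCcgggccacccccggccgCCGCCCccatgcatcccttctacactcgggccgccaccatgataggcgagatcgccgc

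It holds 3 GC boxes, none overlapping another searched motif, and 67.3% of its bases are G or C. Of all 33469 RefSeq windows of this length, 33.1% hold a GC box and the median G and C content is 51.7%. The Btg1 window holds no CCAAT box (in 37.5% of all windows), no TGACG half-site of the cAMP response element (21.2%), and no TGTTCT half-site of the glucocorticoid receptor (20.7%), on either strand.

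Ccnd1, cyclin D1, is represented by 5 probe sets that did not give 1 answer. D14014_at read 11.07 and 11.41 log2 intensity in T/HS lungs, against 11.75 and 11.85 in T/SS lungs. It read 11.29 and 11.21 in T/HS-LDL lungs, against 11.50 and 11.75 in T/SS-LDL lungs. The groups did not overlap in either duct state, nor did all 4 shocked samples overlap with all 4 sham-shocked samples.

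The Ccnd1 difference on D14014_at was -0.56 ± 0.15 for T/HS against T/SS and -0.38 ± 0.15 with the duct tied (SE, limma adjusted p 0.417 and 0.998). Over both duct states it was -0.47 ± 0.10, a ratio of 0.722 (95% interval of the log2 difference -0.71 to -0.22, limma adjusted p 0.312). The interaction on D14014_at was -0.19, with a 95% interval of -0.68 to 0.30 (limma adjusted p 1). With single samples left out the D14014_at interaction lay between -0.35 and -0.02, and the difference with the duct tied was -0.25 without T/SS-LDL replicate 2. With near-identical arrays as a random block the shock effect on D14014_at was -0.47 with a limma adjusted p of 0.0470. Here too the near-identical arrays count in part as separate samples.

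D14014_g_at, from the same target sequence, read 11.41 and 11.997 in T/HS lungs, against 12.04 and 12.19 in T/SS lungs. It read 11.92 and 11.46 in T/HS-LDL lungs, against 12.06 and 12.15 in T/SS-LDL lungs, so that here too each shocked sample lay below each sham-shocked one. The D14014_g_at difference was -0.41 ± 0.22 with the duct open and -0.41 ± 0.22 with it tied (limma adjusted p 0.636 and 0.998), and -0.41 ± 0.16 over both (limma adjusted p 0.528). Without the averaged T/HS sample the difference with the duct open was -0.12, and without T/HS-LDL replicate 2 the difference with the duct tied was -0.18. The D14014_g_at difference over both duct states was -0.26 without the averaged T/HS sample.

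The expressed sequence tag set rc_AA957218_at, annotated to the same gene, differed in the other direction. It read 10.46 and 10.49 in T/HS lungs, against 10.18 and 10.21 in T/SS lungs. It read 10.36 and 10.15 in T/HS-LDL lungs, against 10.08 and 10.12 in T/SS-LDL lungs. The rc_AA957218_at differences were 0.28 ± 0.10 and 0.16 ± 0.10, with no overlap between groups in either duct state (limma adjusted p 0.525 and 0.998). Over both duct states the difference was 0.22 ± 0.07, and the 4 shocked samples overlapped with the 4 sham-shocked ones (limma adjusted p 0.459). Without the averaged T/HS-LDL sample the difference with the duct tied was 0.05.

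The X75207_s_at set of Ccnd1 read 10.90 and 11.32 in T/HS lungs, against 11.08 and 10.90 in T/SS lungs, which overlapped (0.12 ± 0.18, limma adjusted p 0.89). Its shock effect over both duct states was -0.02 ± 0.13 (limma adjusted p 0.976). The rc_AI231257_at set of Ccnd1 stayed between 8.16 and 8.38 in all 8 samples, with a shock effect of 0.01 ± 0.07 (limma adjusted p 0.971). Across the 8 samples, D14014_at correlated with D14014_g_at at r = 0.88, with X75207_s_at at 0.30 and with rc_AA957218_at at -0.54, as a description of probe sets that share the same arrays. A direction for Ccnd1 as a gene therefore depends on which of its probe sets is read.

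Ccnd2, cyclin D2, was higher in T/HS lungs than in the other groups on its tag set rc_AA899106_at. It read 10.87 and 10.98 in T/HS lungs, against 10.30 and 10.25 in T/SS lungs. T/HS-LDL lungs were at 10.40 and 10.14 and T/SS-LDL lungs at 9.89 and 10.60 on this set, so both T/HS samples lay above the other 6.

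The rc_AA899106_at difference was 0.65 ± 0.22 for T/HS against T/SS and 0.66 ± 0.22 for T/HS against T/HS-LDL (limma adjusted p 0.492 and 0.775). Both comparisons share the T/HS samples and are not separate evidence. With the duct tied, T/HS-LDL minus T/SS-LDL, the rc_AA899106_at difference was 0.02 ± 0.22 (limma adjusted p 0.998). The interaction for Ccnd2 was 0.63, with a 95% interval of -0.12 to 1.38 (limma adjusted p 1), and 0.27 without T/SS-LDL replicate 2. The set D16308_at of Ccnd2 read 10.10 and 10.30 in T/HS lungs, against 10.05 and 10.01 in T/SS lungs, without overlap and with a smaller difference of 0.17 ± 0.14 (limma adjusted p 0.753). Against T/HS-LDL lungs, at 10.06 and 10.04, the D16308_at difference was 0.15 ± 0.14 (limma adjusted p 0.844). Without T/HS replicate 2 these D16308_at differences were 0.07 and 0.05. Both Ccnd2 sets correlated at r = 0.88 over the 8 samples.

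Ccnd3, cyclin D3, has 4 probe sets from 2 target sequences, and they ranked the T/HS samples in opposite order. D16309_at read 12.53 and 13.03 in T/HS lungs, against 12.62 and 12.46 in T/SS lungs. D16309_g_at read 12.09 and 12.92 in T/HS lungs, against 12.36 and 12.27 in T/SS lungs. On both, T/HS replicate 2 was the highest of all 8 samples, and on D16309_g_at the averaged T/HS sample was the lowest.

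U49935mRNA_s_at of Ccnd3 read 10.94 and 10.63 in T/HS lungs, against 10.48 and 10.46 in T/SS lungs. U49935mRNA_r_at read 10.44 and 10.05 in T/HS lungs, against 10.12 and 9.97 in T/SS lungs. On these sets the averaged T/HS sample was the highest of the 8 samples. The differences for T/HS against T/SS were 0.24 ± 0.23 on D16309_at, 0.19 ± 0.25 on D16309_g_at, 0.20 ± 0.20 on U49935mRNA_r_at and 0.32 ± 0.17 on U49935mRNA_s_at (limma adjusted p from 0.637 to 0.87). Only U49935mRNA_s_at of these 4 sets had T/HS and T/SS samples that did not overlap, and its difference for T/HS against T/HS-LDL was 0.37 ± 0.17 (limma adjusted p 0.775). Without the averaged T/HS sample the U49935mRNA_s_at differences were 0.16 against T/SS and 0.21 against T/HS-LDL, and that of U49935mRNA_r_at against T/SS was 0.0075. Across the 8 samples the sets of 1 target sequence correlated at 0.87 and 0.90, and sets of different target sequences at -0.25 to 0.22.

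**Figure D2:**
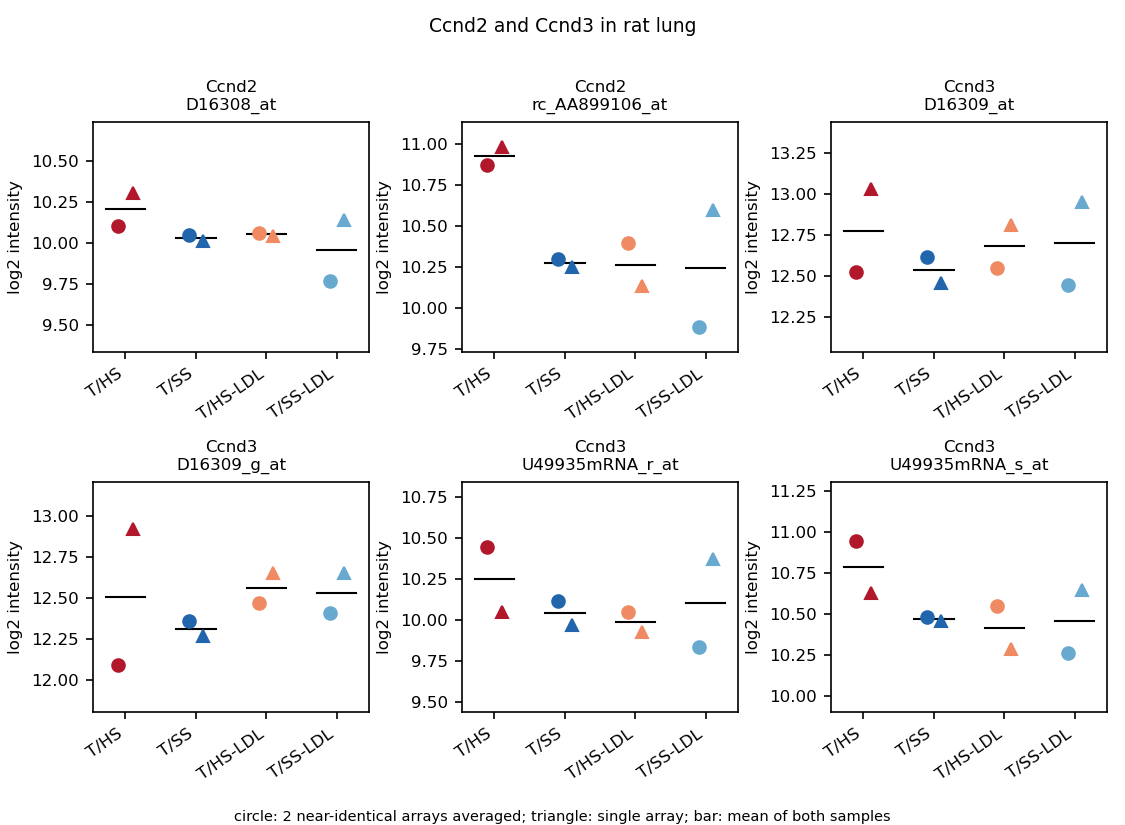
Log2 intensity of 2 Ccnd2 and 4 Ccnd3 probe sets in 4 groups of rat lung, with circles for the average of 2 near-identical arrays, triangles for the single array and bars for the mean of both samples. Ccnd2 on rc_AA899106_at is at 10.87 and 10.98 in T/HS lungs and at most 10.60 elsewhere, while the Ccnd3 sets D16309 and U49935mRNA place the T/HS samples in opposite order.

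Cdkn1a, the p21 inhibitor, was not higher in any shocked group on the means of either probe set. L41275cds_s_at read 9.27 and 9.18 in T/HS lungs, against 9.93 and 9.53 in T/SS lungs. T/HS-LDL lungs were at 9.46 and 9.99 and T/SS-LDL lungs at 9.57 and 9.98, so both T/HS samples lay below the other 6.

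The Cdkn1a difference on L41275cds_s_at was -0.50 ± 0.23 for T/HS against T/SS and -0.50 ± 0.23 for T/HS against T/HS-LDL (limma adjusted p 0.582 and 0.775), again with shared T/HS samples. The L41275cds_s_at difference for T/HS against T/SS was -0.30 without the averaged T/SS sample, and that for T/HS against T/HS-LDL was -0.24 without T/HS-LDL replicate 2 and -0.76 without the averaged T/HS-LDL sample. On U24174_at Cdkn1a read 11.44 and 11.31 in T/HS lungs, against 11.82 and 11.35 in T/SS lungs, which overlapped. Its difference was -0.21 ± 0.19 with a 95% interval of -0.67 to 0.25 (limma adjusted p 0.791), and 0.03 without the averaged T/SS sample. Both Cdkn1a sets correlated at r = 0.83 over the 8 samples. On U24174_at T/HS-LDL lungs were at 11.30 and 11.64 and T/SS-LDL lungs at 11.39 and 11.64. T/HS lungs differed from T/HS-LDL lungs by -0.10 ± 0.19 on that set (limma adjusted p 0.919). The shock difference with the duct tied was -0.05 ± 0.23 on L41275cds_s_at and -0.05 ± 0.19 on U24174_at, both with a limma adjusted p of 0.998.

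Cdkn1b, the p27 inhibitor, has 1 probe set, D83792_at, and varied little. It read 8.58 and 8.82 in T/HS lungs, against 8.85 and 8.88 in T/SS lungs, without overlap. T/HS-LDL lungs were at 8.80 and 8.69, and T/SS-LDL lungs at 8.76 and 8.64. The Cdkn1b difference was -0.16 ± 0.12 for T/HS against T/SS and again -0.16 ± 0.12 when T/SS-LDL was set against T/SS (limma adjusted p 0.727 and 0.896), 2 comparisons that share the T/SS samples. The 95% interval for T/HS against T/SS ran from -0.44 to 0.11. The Cdkn1b difference for T/HS against T/SS was -0.04 without the averaged T/HS sample and -0.28 without T/HS replicate 2, and that for T/SS-LDL against T/SS was -0.10 without T/SS-LDL replicate 2.

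Cdkn1a, Gadd45a and Ccng1 are known p53 targets, and their RefSeq windows are shown because these 3, of the 8 members with a window, hold a match to the p53 consensus decamer. Capitals mark the match, which reads as the same motif on both strands. The windows run 5′ to 3′ on the strand of the gene in GRCr8, at chr20:7150682-7150981 on the plus strand for Cdkn1a, chr4:97486750-97487049 on the minus strand for Gadd45a and chr10:25684827-25685126 on the minus strand for Ccng1.

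Cdkn1a: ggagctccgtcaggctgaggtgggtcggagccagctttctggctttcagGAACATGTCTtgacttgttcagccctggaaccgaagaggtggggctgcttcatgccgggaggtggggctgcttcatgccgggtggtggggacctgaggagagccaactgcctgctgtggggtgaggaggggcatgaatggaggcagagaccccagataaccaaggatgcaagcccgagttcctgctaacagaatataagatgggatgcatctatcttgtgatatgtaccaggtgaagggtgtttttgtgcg
Gadd45a: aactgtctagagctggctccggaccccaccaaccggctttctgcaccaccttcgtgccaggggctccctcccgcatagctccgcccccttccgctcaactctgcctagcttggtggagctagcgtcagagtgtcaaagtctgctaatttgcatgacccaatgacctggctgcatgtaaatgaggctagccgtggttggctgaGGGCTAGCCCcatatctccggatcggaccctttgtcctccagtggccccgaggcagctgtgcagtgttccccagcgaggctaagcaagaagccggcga
Ccng1: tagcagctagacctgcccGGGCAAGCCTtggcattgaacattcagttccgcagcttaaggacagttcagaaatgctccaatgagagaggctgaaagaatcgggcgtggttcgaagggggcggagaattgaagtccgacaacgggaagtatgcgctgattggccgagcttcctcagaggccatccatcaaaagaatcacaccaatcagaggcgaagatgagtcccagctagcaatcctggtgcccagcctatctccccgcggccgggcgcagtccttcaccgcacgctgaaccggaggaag

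The match begins 201 bases before the RefSeq start in Cdkn1a, 48 before it in Gadd45a and 232 before it in Ccng1, and overlaps no other searched motif. Whether these are the starts of transcription used in lung was not tested, so the distances hold for these RefSeq starts only. Of all 33469 windows 7.98% hold such a decamer. A match is a string of letters and not a bound site. In T/HS against T/SS the Cdkn1a sets differed by -0.50 and -0.21, the Ccng1 set by 0.63, and all 4 Gadd45a sets had groups that overlapped.

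Ccng1, cyclin G1, was high in 1 T/HS sample. X70871_at read 10.80 and 9.81 in T/HS lungs, against 9.63 and 9.72 in T/SS lungs. T/HS-LDL lungs were at 10.16 and 9.86 and T/SS-LDL lungs at 9.79 and 10.09. The averaged T/HS sample lay above all others, and T/HS replicate 2 lay above both T/SS samples but within the range of the ligated groups.

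The Ccng1 difference was 0.63 ± 0.31 for T/HS against T/SS, with a 95% interval of -0.10 to 1.36 (limma adjusted p 0.603), and 0.13 without the averaged T/HS sample. Between T/HS and T/HS-LDL lungs it was 0.30 ± 0.31 (limma adjusted p 0.857) and -0.20 without the averaged T/HS sample. With the duct tied, T/HS-LDL minus T/SS-LDL, it was 0.07 ± 0.31 (limma adjusted p 0.998). The summed intensity of 8 T cell markers (of 9 listed) was 9683 in the averaged T/HS sample, 6720 in T/HS replicate 2 and 6575 to 7560 in the other 6 samples. Its part in the Ccng1, Ccnd3 and Pcna values was not tested.

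Gadd45a, a stress-induced inhibitor of the cycle, was high in T/HS-LDL replicate 2 on all 4 probe sets. L32591mRNA_at read 10.73 and 12.15 in T/HS-LDL lungs, against 11.18 and 11.16 in T/SS-LDL lungs. The same set read 10.18 and 11.06 in T/HS lungs, against 10.53 and 11.18 in T/SS lungs. T/HS-LDL replicate 2 was the highest and the averaged T/HS sample the lowest of the 8.

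The other Gadd45a sets showed T/HS-LDL replicate 2 highest as well, at 12.82 on L32591mRNA_g_at against 11.66 to 12.30 elsewhere. On rc_AI070295_g_at it was at 11.07, against 9.85 to 10.31 in the other samples. On rc_AI070295_at, the dimmest set of the group, it was at 9.23, against 7.28 to 8.36. The 4 sets correlated with each other at r = 0.66 to 0.94 across the 8 samples.

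No group difference of Gadd45a was larger than this spread. Between T/HS-LDL and T/SS-LDL lungs the log2 differences were 0.27 ± 0.49 on L32591mRNA_at, 0.22 ± 0.36 on L32591mRNA_g_at, 0.62 ± 0.54 on rc_AI070295_at and 0.27 ± 0.30 on rc_AI070295_g_at, each with a limma adjusted p of 0.998. Without T/HS-LDL replicate 2 they were -0.44 on L32591mRNA_at, -0.31 on L32591mRNA_g_at, -0.14 on rc_AI070295_at and -0.23 on rc_AI070295_g_at, so the direction rests on that array. On L32591mRNA_g_at the sign also turned without the averaged T/SS-LDL sample, to -0.01. For T/HS against T/HS-LDL the differences were -0.82 ± 0.49 on L32591mRNA_at, -0.84 ± 0.54 on rc_AI070295_at and -0.53 ± 0.30 on rc_AI070295_g_at (limma adjusted p 0.78 to 0.791), and -0.12, -0.08 and -0.03 without T/HS-LDL replicate 2. On L32591mRNA_g_at that difference was -0.45 ± 0.36 (limma adjusted p 0.831), and 0.09 without T/HS-LDL replicate 2.

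**Figure D3:**
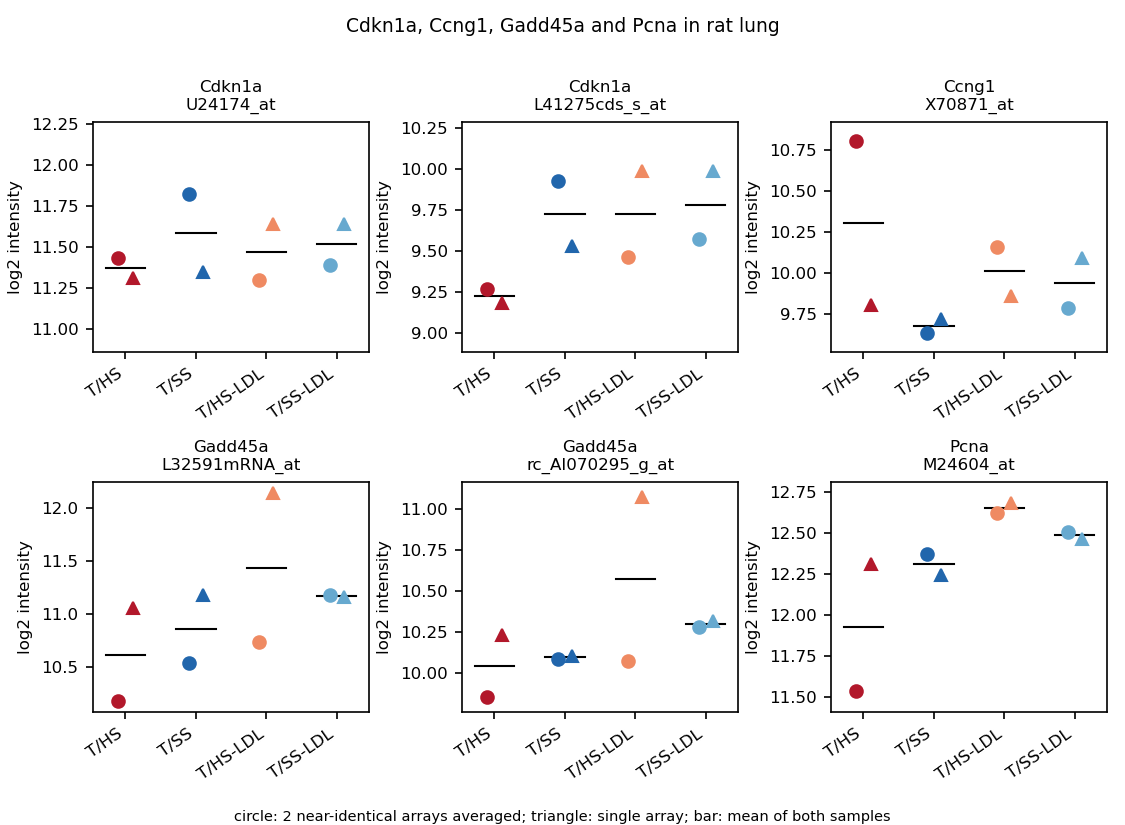
Log2 intensity of 2 Cdkn1a, 1 Ccng1, 2 Gadd45a and 1 Pcna probe sets in 4 groups of rat lung, with circles for the average of 2 near-identical arrays, triangles for the single array and bars for the mean of both samples. The averaged T/HS sample is the highest for Ccng1 (10.80) and the lowest for Pcna (11.54), and T/HS-LDL replicate 2 is the highest for Gadd45a (12.15 on L32591mRNA_at).

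Pcna, the clamp that holds DNA polymerase on its template and a partner of p21, was low in 1 T/HS sample. M24604_at read 11.54 and 12.31 in T/HS lungs, against 12.38 and 12.25 in T/SS lungs. T/HS-LDL lungs were at 12.62 and 12.68 and T/SS-LDL lungs at 12.51 and 12.47. The averaged T/HS sample was the lowest of the 8. M24604_g_at, from the same target sequence, read 10.26 and 11.03 in T/HS lungs, against 11.13 and 11.04 in T/SS lungs. It read 11.37 and 11.36 in T/HS-LDL lungs, against 11.22 and 11.09 in T/SS-LDL lungs. On both sets all ligated samples except T/SS-LDL replicate 2 on M24604_g_at lay above all samples with an open duct.

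The Pcna difference for T/HS against T/HS-LDL was -0.73 ± 0.23 on M24604_at and -0.72 ± 0.23 on M24604_g_at (ratios of 0.604 and 0.607, limma adjusted p 0.775 for both). Without the averaged T/HS sample these were -0.34 and -0.33. For T/HS against T/SS the differences were -0.38 ± 0.23 and -0.44 ± 0.23 (limma adjusted p 0.661 and 0.613), and 0.0029 and -0.06 without the averaged T/HS sample. Between T/HS-LDL and T/SS-LDL lungs they were 0.17 ± 0.23 and 0.21 ± 0.23 (limma adjusted p 0.998).

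Over both shock states, ligated lungs (T/HS-LDL and T/SS-LDL) differed from lungs with an open duct by 0.45 ± 0.16 on M24604_at and by 0.39 ± 0.16 on M24604_g_at (4 samples per side, limma adjusted p 0.603). The interaction of shock and ligation for Pcna was -0.55 on M24604_at and -0.65 on M24604_g_at, with 95% intervals of -1.32 to 0.22 and -1.42 to 0.11 (limma adjusted p 1). Without the averaged T/HS sample the ligation differences were 0.26 on M24604_at and 0.20 on M24604_g_at, and the interactions were -0.16 and -0.27.

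Over all 23 probe sets, limma called 0 in each of the 7 contrasts at an adjusted p of 0.05, as it called 0 of 8740 (0%) in each. For T/HS against T/SS, 4 of 23 (17.4%) had an unadjusted p under 0.05, against 8.8% of all probe sets: L26268_at, D14014_at, rc_AA899106_at and rc_AA957218_at. T/HS and T/SS samples did not overlap in 12 of 23 (52.2%), against 40.1% of all, with 7 higher in T/HS (19.2% of all) and 5 lower (20.9% of all). In T/HS against T/HS-LDL, 3 of 23 had an unadjusted p under 0.05, against 6.37% of all, and 9 of 23 did not overlap, against 34.1% of all.

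In T/HS-LDL against T/SS-LDL, 2 of 23 had an unadjusted p under 0.05, against 3.79% of all, and 6 of 23 did not overlap, against 29.2% of all. In T/SS-LDL against T/SS, 0 of 23 had an unadjusted p under 0.05, against 4.23% of all, and 6 of 23 did not overlap, against 40.6% of all. Over both duct states, shocked lungs differed from sham-shocked lungs at an unadjusted p under 0.05 in 5 of 23, against 9.04% of all. In that contrast all 4 shocked samples lay apart from all 4 sham-shocked samples in 3 of 23 (13.0%), against 4.65% of all: L26268_at of Btg1 above (2.49% of all), and both D14014 sets of Ccnd1 below (2.15% of all). For ligated against open-duct lungs, 2 of 23 (both Pcna sets) had an unadjusted p under 0.05, against 8.08% of all, and 1 of 23 did not overlap, against 4.49% of all. For the interaction 0 of 23 did, against 2.99% of all. Since several sets measure the same gene, these counts are fewer than 23 separate observations.

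The median log2 difference of the 23 sets was close to that of all probe sets, at 0.03 against -0.01 for T/HS against T/SS and 0.05 against 0.01 for the same contrast with the duct tied. The median size without regard to sign was 0.28, against 0.12 for all probe sets, in T/HS against T/SS. It was 0.26 against 0.12 in T/HS against T/HS-LDL, 0.16 against 0.08 in the shock contrast with the duct tied, and 0.08 against 0.11 in the ligation contrast of sham-shocked lungs. Only 1 of the 23 sets was among the dimmest 30% of all probe sets. These sizes were not matched for brightness, or for the several sets of 1 gene. In T/HS against T/SS the difference was above 0 for 12 of the 23 sets and below 0 for 11.

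**Figure D4:**
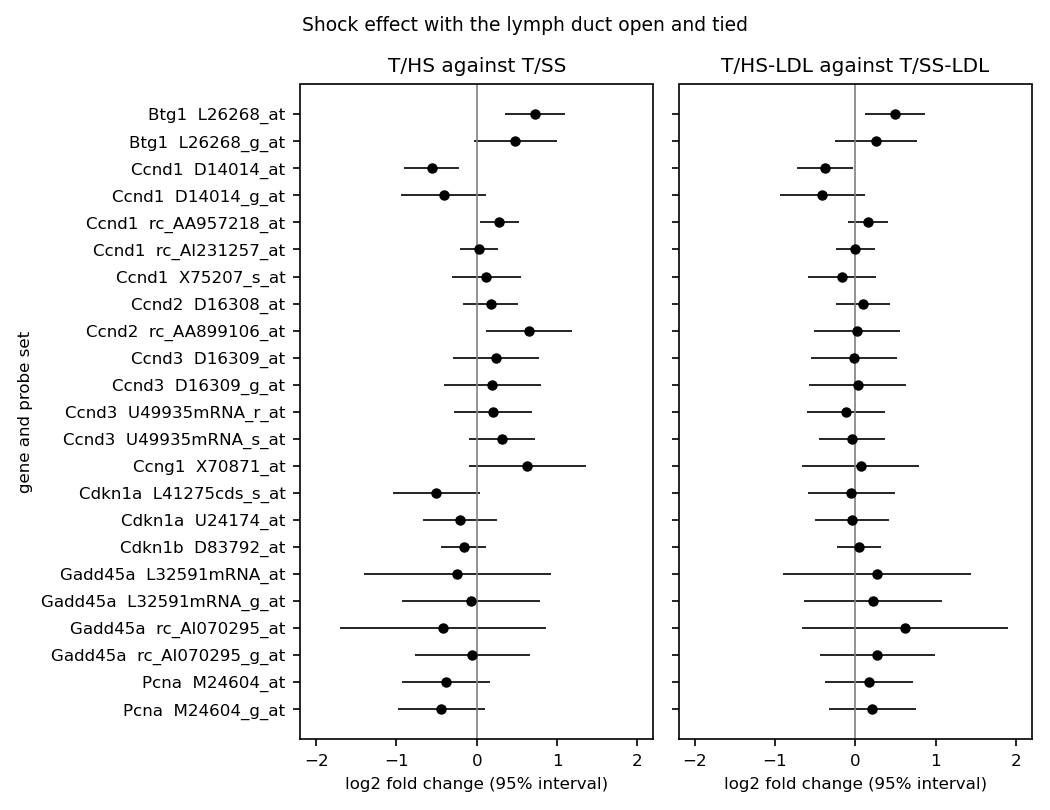
Log2 fold change with its 95% interval from limma for all 23 probe sets, for T/HS against T/SS on the left and the same contrast with the duct tied on the right. The intervals of L26268_at (Btg1) and D14014_at (Ccnd1) lie on 1 side of 0 in both panels, and the widest interval is that of rc_AI070295_at (Gadd45a).

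**Figure D5:**
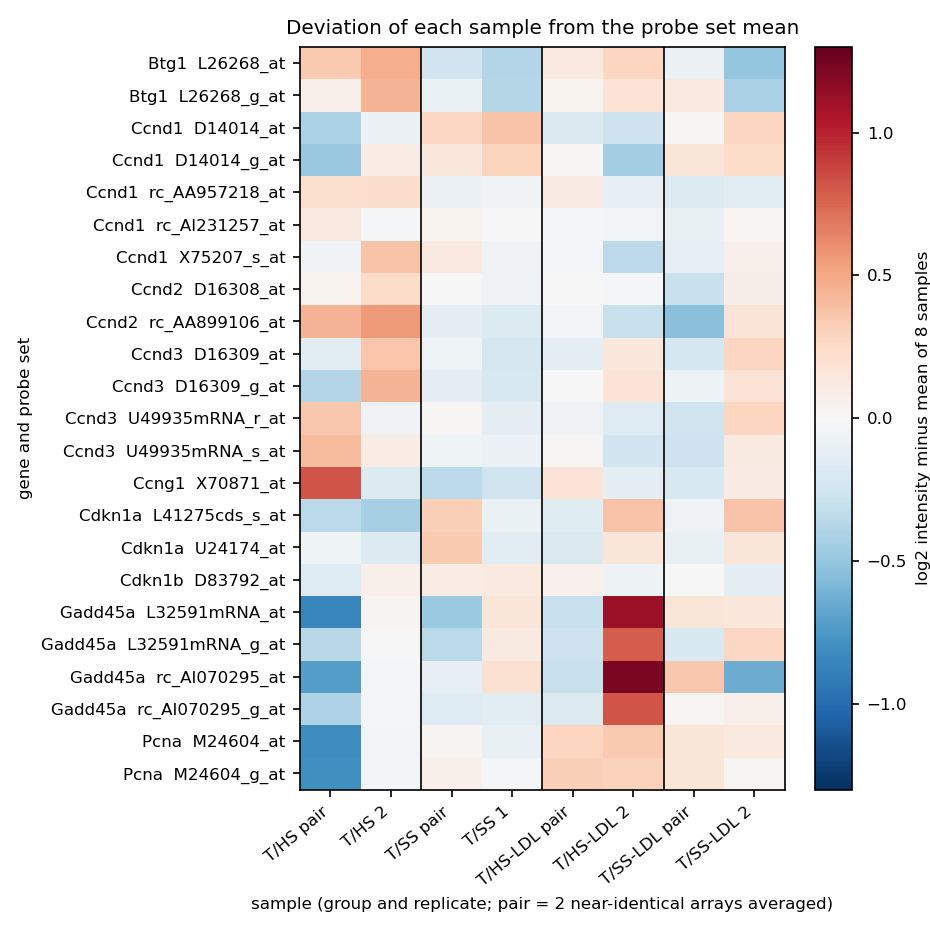
Log2 intensity of each probe set in each of the 8 samples minus its mean over the 8 samples, in colour, with groups parted by lines. The averaged T/HS sample carries the lowest Pcna and the highest Ccng1 values, and T/HS-LDL replicate 2 the highest Gadd45a values.

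Genes that act beside the members were read from 5 lists, each with the brightest probe set of a gene, and limma called 0 of their genes in either direction in any contrast. For shock over both duct states 9.04% of all probe sets had an unadjusted p under 0.05, the share to set beside the counts below. Over both duct states, among 12 measured cyclins, kinases and E2F partners of 25 listed, 3 were higher and 2 lower in shocked lungs at an unadjusted p under 0.05. Cdk4, the kinase partner of the D-type cyclins and the brightest of that list, read 11.57 and 11.52 in T/HS lungs, against 11.79 and 11.92 in T/SS lungs. With the duct tied Cdk4 read 11.66 and 11.89 in T/HS-LDL lungs, against 11.93 and 12.05 in T/SS-LDL lungs. Its shock effect was -0.27 ± 0.08 (limma adjusted p 0.422), in the direction of the D14014 sets of Ccnd1. In the same contrast rc_AA957218_at of Ccnd1 and all Ccnd2 and Ccnd3 sets differed in the other direction (0.04 to 0.34).

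Myc, a transcription factor that drives growth, differed by 0.46 ± 0.12, and Max, its binding partner, by 0.42 ± 0.15 (limma adjusted p 0.361 and 0.484). Among CDK inhibitors and pocket proteins 4 of 9 genes were measured. Rb1, the retinoblastoma protein, differed by 0.43 ± 0.12, the inhibitor Cdkn2b (p15) by -0.35 ± 0.14, the inhibitor Cdkn1c (p57) by -0.07 ± 0.07 and the pocket protein Rbl2 by 0.15 ± 0.15 (limma adjusted p 0.396 to 0.854). Of these 4, 1 was higher and 1 lower at an unadjusted p under 0.05. The Rb1 set was dim, with a mean log2 intensity of 7.75. It differed by 0.67 with the duct open and by 0.18 with it tied (limma adjusted p 0.417 and 0.998).

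Of 24 genes in the list of p53 and its targets 5 were measured, with 3 higher, 2 lower and 0 at an unadjusted p under 0.05. Mdm2, the ubiquitin ligase that p53 induces against itself, differed by -0.06 ± 0.07, Zmat3 by 0.12 ± 0.08 and Igfbp3, which binds insulin-like growth factors, by 0.31 ± 0.30 (limma adjusted p 0.771 to 0.903). Mdm2 lay between 11.06 and 11.25 in all 8 samples.

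Of the list of stress-induced growth arrest 16 of 23 genes were measured, with 2 higher and 2 lower at an unadjusted p under 0.05. Cebpd, a transcription factor induced by cytokines and glucocorticoids, read 13.02 and 13.57 in T/HS lungs, against 12.04 and 12.31 in T/SS lungs. Cebpd read 12.76 and 13.04 in T/HS-LDL lungs, against 12.59 and 12.31 in T/SS-LDL lungs. Its shock effect was 0.78 ± 0.15 (limma adjusted p 0.298), and like L26268_at of Btg1 it was higher in each shocked sample than in each sham-shocked one. Klf4, which can induce p21 and arrest the cycle, differed by -0.40 ± 0.08 and Klf9 by -0.45 ± 0.11 (limma adjusted p 0.302 and 0.329). Klf4 read 11.69 and 11.60 in T/HS lungs, against 12.20 and 12.31 in T/SS lungs, and 12.32 and 12.17 in T/HS-LDL lungs, against 12.33 and 12.54 in T/SS-LDL lungs. Klf9 read 13.13 and 13.16 in T/HS lungs, against 13.93 and 13.86 in T/SS lungs, and 13.68 and 13.94 in T/HS-LDL lungs, against 14.16 and 13.77 in T/SS-LDL lungs. The Klf9 difference was -0.75 with the duct open and -0.15 with it tied, with an interaction of -0.60 ± 0.21, and the interaction of Klf4 was -0.42 ± 0.16 (limma adjusted p 1 for both). Txnip, which restrains thioredoxin and was the brightest of the list, differed by -0.18 ± 0.10 (limma adjusted p 0.704).

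Among 22 measured genes of DNA replication and mitosis, of 38 listed, 1 was higher and 2 lower at an unadjusted p under 0.05, with a median of 0.01. Stmn1, a microtubule destabiliser of dividing cells, read 10.72 and 10.21 in T/HS lungs, against 11.51 and 11.30 in T/SS lungs. Stmn1 read 11.23 and 11.20 in T/HS-LDL lungs, against 11.33 and 11.35 in T/SS-LDL lungs, a small gap beside that with the duct open. Its shock effect was -0.53 ± 0.12 and its interaction -0.81 ± 0.24 (limma adjusted p 0.321 and 1). Rfc1, a subunit of the complex that loads Pcna onto DNA, differed by -0.21 ± 0.07, Top2a, a topoisomerase of dividing cells, by 0.28 ± 0.10, and Plk1, a mitotic kinase and the brightest of the list, by 0.01 ± 0.07 (limma adjusted p 0.458 to 0.984). Rfc1 read 8.20 and 8.22 in T/HS lungs, against 8.58 and 8.63 in T/SS lungs, and 8.64 and 8.53 in T/HS-LDL lungs, against 8.69 and 8.54 in T/SS-LDL lungs. The Rfc1 difference was thus -0.40 with the duct open and -0.03 with it tied, with an interaction of -0.37 ± 0.14 (limma adjusted p 1).

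The probe sets whose pattern was most like that of Cdkn1a on U24174_at over the 8 samples belonged to Hpcal1 (r = 0.91), Fhl2 (0.87), Col1a1 (0.84), Pea15 (0.82) and Gnai2 (0.81), the highest of 1414 candidate sets. For Ccnd1 on D14014_g_at, its brightest set, they belonged to B4galt6 (r = 0.96), Klf10 (0.91), Agrn (0.91), Map2k1 (0.89) and Cyp4b1 (0.86), the highest of 1412. These coefficients describe 8 samples that share their arrays with all genes, and were picked as the highest of many.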

How the data were processed

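Rat lung RNA was hybridised to Affymetrix RG-U34A arrays. Per the submitters' processing notes the authors made the deposited intensity values with RMA, which corrects background, normalizes between arrays and summarises the probes of a set; the version and settings are not given in the sources used here. The values are linear (array medians 651.2 to 680.2), so log2 was taken with no further scaling; no depth applies to arrays, and their number limits the precision. The file lists 8799 probe sets, of which 59 are array controls and were not tested. Symbols came from the platform annotation: 7006 sets had 1 symbol, 308 several and 1426 none.

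Arrays of a group whose log2 differences had a robust SD under 0.1 were averaged. All tests come from 1 linear model of the 4 groups over those 8 samples, in limma 3.58.1 under R 4.3.3 (lmFit and eBayes, 4 residual and 2.85 prior degrees of freedom), two-sided, with Benjamini-Hochberg adjustment over 8740 probe sets and a threshold of 0.05. The fit was tested on simulated data. Members, lists and the averaging rule were chosen with earlier results of these data known; motifs were chosen after the values were seen. All member sets were named; of each list, the 3 genes with the smallest p for shock over both duct states and the one with the highest mean, and for Cdkn1a and Ccnd1 the 5 most correlated sets with a mean above the median and an SD of at least 0.2. Windows around the RefSeq start (GRCr8) were matched by symbol for 8 members. Same-numbered arrays of different groups had deviations that correlated above 0.1 in 3 of 18 pairs (r -0.166 to 0.189), and nothing in the labels ties the numbers to a day, so no pairing was used. Alternatives are listed in the closing section.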

Additional observations from a re-analysis of the deposited data

How the results depend on the processing

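Of the 61 single-gene log2 differences reported for the members, 42 kept their sign in every alternative run (17 settings, 8 of them leaving out a sample) and 19 turned sign in at least 1; 20 alternatives passed the threshold where the reported value did not. With a sample left out, 51 of the 61 moved by over 1.5 times or turned sign in at least 1 case. Each fit with a sample left out holds 1 sample in that group, so only its effect sizes are given. After quantile normalization, median centring, an offset of 50, removal of dim sets, or trend and robust, limma called 0 member sets in each contrast. It also called 0 member sets in the fits of only the groups compared, which were run for the 4 contrasts of 2 groups. Over all probe sets too the calls in these fits were 0. With 12 separate arrays it called 4 for T/HS against T/SS, 2 for T/HS against T/HS-LDL, 3 for shock over both duct states and 2 for ligation over both shock states (over all probe sets 629, 372, 733 and 970). With the replicate block added to these arrays it called 2, 1, 3 and 1 (over all probe sets 456, 130, 570 and 518), and with near-identical arrays as a random block 2 for shock over both duct states (58 over all probe sets, and 25 for T/HS against T/SS). These fits count near-identical arrays, wholly or in part, as separate samples.

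With samples left out in turn, these differences turned sign, each given from lowest to highest. For T/HS against T/SS they were Ccnd1 X75207_s_at (-0.0874 to 0.33), Ccnd3 D16309_at (-0.0114 to 0.49) and D16309_g_at (-0.22 to 0.61), Cdkn1a U24174_at (-0.45 to 0.0268) and Pcna M24604_at (-0.77 to 0.0029). For T/HS against T/HS-LDL they were Ccng1 X70871_at (-0.20 to 0.80), Cdkn1a U24174_at (-0.27 to 0.0747) and Gadd45a L32591mRNA_g_at (-0.98 to 0.0855). For shock with the duct tied they were Btg1 L26268_g_at (-0.0147 to 0.53), Ccnd2 rc_AA899106_at (-0.33 to 0.38), Ccng1 X70871_at (-0.083 to 0.22), Cdkn1a L41275cds_s_at (-0.32 to 0.21) and U24174_at (-0.22 to 0.12), and Gadd45a L32591mRNA_at (-0.44 to 0.98), L32591mRNA_g_at (-0.31 to 0.75), rc_AI070295_at (-0.14 to 1.37) and rc_AI070295_g_at (-0.23 to 0.78). For shock over both duct states they were Ccnd1 X75207_s_at (-0.13 to 0.083) and rc_AI231257_at (-0.0246 to 0.0533, and -0.0072 after quantile normalization). The cause was not tested beyond the sample left out. With 2 samples a group, 1 sample can decide a direction.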
